A study of Homo sapiens with 8 samples.

Results

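Mechanosensitive ion channels open when the cell membrane is stretched, sheared or indented, and most of those considered here pass calcium. PIEZO1 and PIEZO2 are large trimeric cation channels gated directly by membrane tension; PIEZO1 is widely expressed in non-excitable cells, and PIEZO2 is best known from touch-sensing neurons and Merkel cells. TRPV2, TRPV4, TRPM7 and TRPC1 belong to the transient receptor potential (TRP) family of cation channels, for which a response to stretch, swelling or shear has been described, in part through other molecules. PKD1 (polycystin-1) is a large receptor-like membrane protein that pairs with the TRP channel PKD2 (polycystin-2), best known from the primary cilium of kidney epithelium. The 8 genes were chosen by name as a functional group, with earlier results of these data known, and were read through every probe set whose only gene symbol in the platform annotation is one of them. This gave 23 probe sets for 7 genes out of 41091 singly named probe sets for 19775 genes. No probe set was named PKD2 by the annotation used here, so PKD2 has no value.

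The cells were MDA-MB-231, an established human triple-negative breast cancer line of mesenchymal type, untreated and grown for 2 days in a serum-supplemented medium on either a stiff or a soft substrate. Each substrate had 4 biological replicates, lettered A to D, with 1 Affymetrix array each and no genetic change between the groups. The design is thus 1 line on 2 substrates, and neither the stiffness nor the material of the substrates was given in the sources used here. Values are log2 RMA levels, in which 1 unit is a doubling. All differences below are soft minus stiff with the moderated standard error (SE) of limma's model, and are called at an adjusted p under 0.05 over all 54613 probe sets. A probe set was taken as above background where its mean in at least 1 group exceeded 6.18, the 95th percentile of 12 genes taken as silent in these cells, such as ALB and INS.

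Arrays of the whole series correlated at 0.993 to 0.998, and on the second principal component (16.4% of the variance) stiff A and B lay apart from stiff C and D. Of the markers of the line, VIM, CD44, S100A4, CAV1 and TGFBI were all above background, and the luminal markers PGR, CDH1 and FOXA1 were not, while ESR1 and GATA3 were. ESR1, read by the highest of its 9 probe sets, lay near the level (6.38 on stiff and 6.43 on soft). Its place above the level thus does not show that it is expressed. All 3 measured leukocyte markers and the endothelial markers CDH5 and VWF were not above background. PECAM1, an adhesion molecule of endothelium, stood at 7.52 on stiff and 8.01 on soft (adjusted p = 0.00211) at 1 of its 5 probe sets, the only one called, and the line's marker S100A4 rose by 0.53 (adjusted p = 0.00708). The mean level of the 3 endothelial markers ranged over 5.78 to 5.99 among the stiff arrays and 6.01 to 6.13 among the soft ones, and its part in the channel results was not tested. Of 4 fibroblast markers PDGFRB and COL1A1 were above background, PDGFRB by little (6.25 on stiff and 6.35 on soft), and none differed past the threshold.

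A single channel probe set changed with the substrate. PIEZO2 rose on soft at its probe set 219602_s_at by 0.92 on the log2 scale (SE 0.145, adjusted p = 0.00384 in limma's fit, n = 4 arrays per group; 95% interval 0.60 to 1.23). The stiff mean of this probe set was not above background and 2 of the 8 arrays were, so the value is a difference of array levels and no fold change of the mRNA is given. The other 22 probe sets, among them all those of PIEZO1, TRPV2, TRPV4, TRPM7, TRPC1 and PKD1, did not pass the threshold, with differences from -0.20 to 0.32 and adjusted p from 0.139 to 0.989. The share called, 1 of 23, is 4.35%, beside 9.27% of all probe sets called in either direction and 4.64% called as higher on soft. The share of channel probe sets called was thus not above that of all probe sets. Differences lay above 0 at 18 of the 23, with a median of 0.04, where 53.9% of all probe sets lay above 0 with a median of 0.01.

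The upstream sequence of PIEZO2, for which 1 probe set out of 6 was called, is shown beside that of its paralog PIEZO1, for which none was. Both PIEZO genes are channels of the same kind measured in the same cells. Whether transcription of PIEZO2 itself changed was not tested. Each run holds the 250 bases before the annotated gene start, 5′ to 3′ on the gene's strand, from RefSeq on GRCh38.p14. PIEZO2 lies at chr18:11149570-11149819 and PIEZO1 at chr16:88785221-88785470, both on the minus strand. Capitals mark matches to the motifs searched.
PIEZO2: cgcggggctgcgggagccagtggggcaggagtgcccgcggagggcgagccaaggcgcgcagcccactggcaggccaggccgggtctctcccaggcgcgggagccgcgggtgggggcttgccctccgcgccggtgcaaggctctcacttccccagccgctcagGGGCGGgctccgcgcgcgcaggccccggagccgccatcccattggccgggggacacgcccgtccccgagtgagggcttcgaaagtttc
PIEZO1: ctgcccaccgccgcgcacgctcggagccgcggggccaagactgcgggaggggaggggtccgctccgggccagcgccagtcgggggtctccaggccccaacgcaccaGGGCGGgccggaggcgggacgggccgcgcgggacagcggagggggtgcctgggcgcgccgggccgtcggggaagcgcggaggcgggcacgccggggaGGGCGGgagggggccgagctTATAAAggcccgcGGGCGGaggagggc
The motifs were the GC box bound by SP and KLF factors (GGGCGG), the TATA box (TATAAA), the TEAD motif (GGAATG), the AP-1 motif (TGACTCA) and the CArG box of SRF by name, each searched on both strands. The PIEZO2 window held 1 GC box, 83 to 88 bases before the start, and no TATA box. The PIEZO1 window held 3 GC boxes between 9 and 144 bases before the start, and a TATA box 22 to 27 bases before it. A GC box was found in 42.6% and a TATA box in 10.7% of all 35116 such windows. Neither window held the TEAD, AP-1 or CArG letters, which were present in 11.9%, 4.2% and 1.16% of all windows. Both windows are rich in G and C (76.8% for PIEZO2 and 81.2% for PIEZO1), with 29 and 36 CpG dinucleotides. The arrays do not show which start site these cells use, so the windows are a description of the annotated starts.

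**Figure D1:**
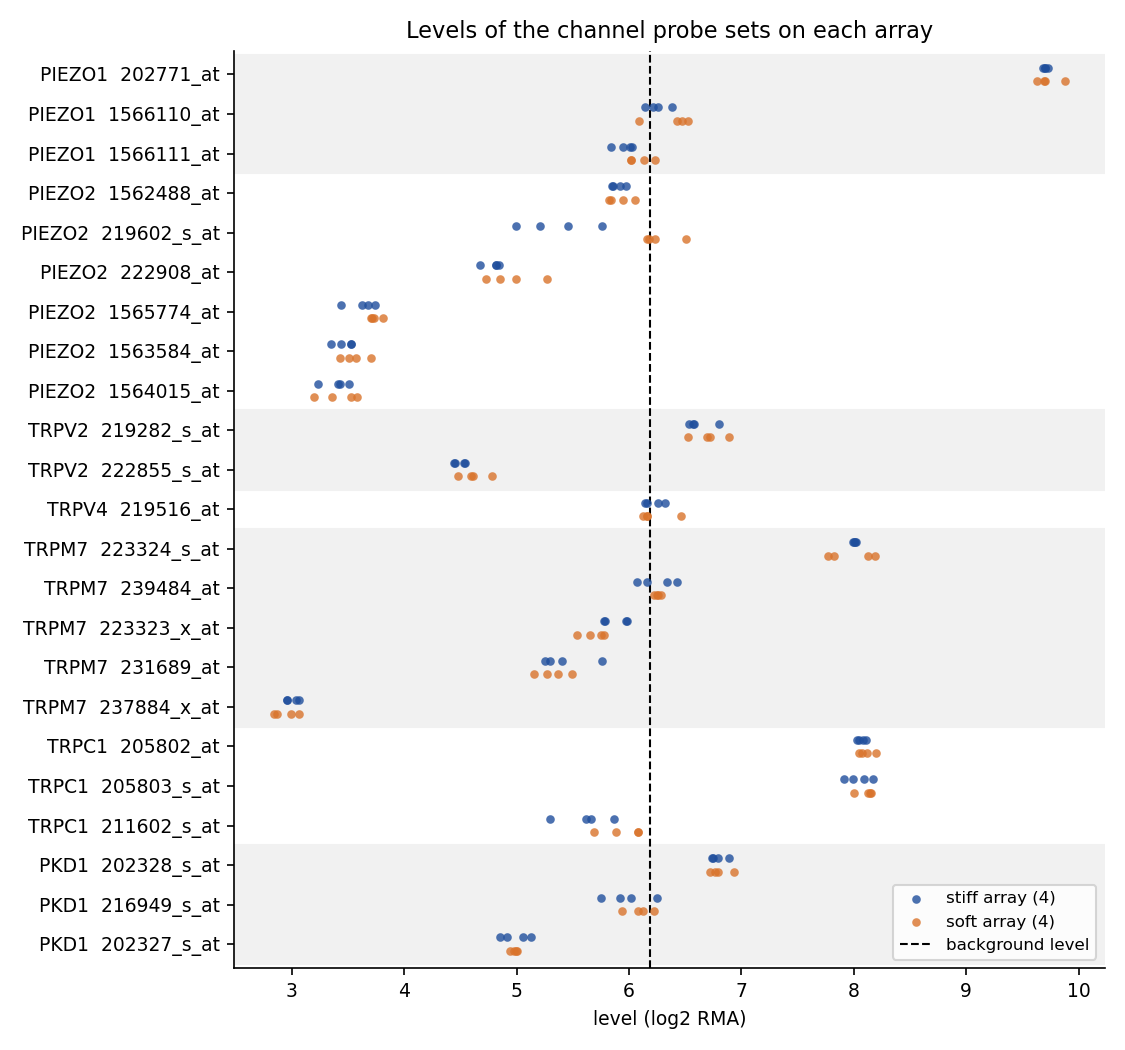
Log2 RMA level (x axis) of each of the 23 channel probe sets (y axis) on the 4 stiff (blue) and 4 soft (orange) arrays, 1 point per array, with the background level of 6.18 as a dashed line. Stiff and soft points overlap at every probe set except PIEZO2 219602_s_at, and 13 of the 23 probe sets have neither group mean above the line.

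By the background level 10 channel probe sets were above background, at least 1 for each of the 7 genes, and 13 were not; of all probe sets, 46.2% were above. The 10 were PIEZO1 202771_at and 1566110_at, PIEZO2 219602_s_at, TRPV2 219282_s_at, TRPV4 219516_at, TRPM7 223324_s_at and 239484_at, TRPC1 205802_at and 205803_s_at, and PKD1 202328_s_at. Of these, PIEZO2 219602_s_at was above background on soft only, and hence met the criterion through the group where it was high. TRPV4 219516_at, PIEZO1 1566110_at and TRPM7 239484_at lay within 0.2 of the level in both groups. By the same rule 2 of the 12 silent genes, PRM1 and NEUROD2, were above background, with soft means of 6.19 and 6.26. The soft mean of PIEZO2 219602_s_at (6.27) and the stiff mean of TRPV4 219516_at (6.22) lay near these. A place above the level thus does not show that PIEZO2 or TRPV4 is expressed in these cells. The plot of levels by array shows each probe set against this line.

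PIEZO1, the directly stretch-gated channel of many epithelial and endothelial cells, did not pass the threshold at any of its 3 probe sets. Its probe set 202771_at, which the platform table pairs with the gene's RefSeq mRNA, read 9.73, 9.70, 9.70 and 9.68 on stiff A to D and 9.88, 9.70, 9.63 and 9.69 on soft A to D. The groups overlapped, soft A was the highest array and soft C the lowest, and the difference was 0.02 (SE 0.067, adjusted p = 0.885). The 95% interval ran from -0.12 to 0.17. PIEZO1 1566110_at differed by 0.13 (adjusted p = 0.48) and 1566111_at, not above background, by 0.14 (adjusted p = 0.27).

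PIEZO2 has 6 probe sets, of which 1 passed the threshold. At 219602_s_at, the probe set paired with the gene's RefSeq mRNA, stiff A to D read 4.99, 5.21, 5.46 and 5.76 and soft A to D read 6.51, 6.23, 6.18 and 6.16. Every soft array was above every stiff array, soft D being the lowest soft array and stiff D the highest stiff one. The means were 5.36 ± 0.33 on stiff and 6.27 ± 0.16 on soft (SD, n = 4). Such a separation was the only one among the 23 probe sets, where 8.06% of all probe sets had every soft array above every stiff one and 8.50% the reverse. The stiff mean lies under the background level, and only soft A and soft B exceed it. Set against stiff A and B alone the soft arrays gave 1.17 (adjusted p = 0.00205), and against the other stiff pair, C and D, 0.66 (adjusted p = 0.0253).

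**Figure D2:**
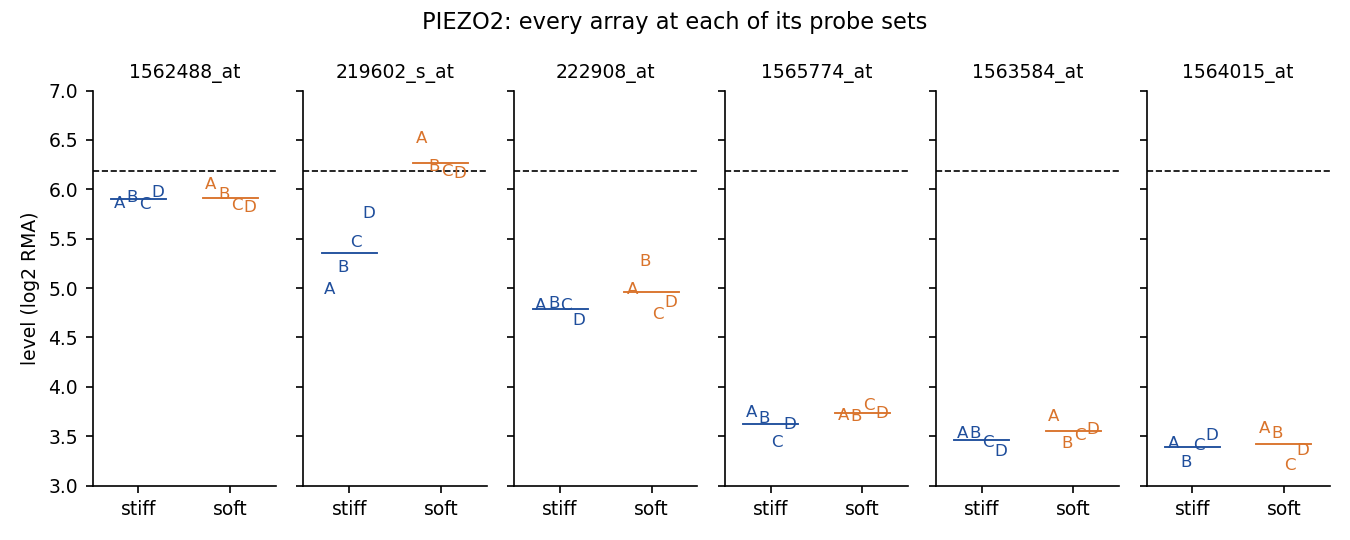
Log2 RMA level (y axis) of each PIEZO2 probe set, one per panel, with letters A to D for the arrays, a line at each group mean (n = 4) and the background level of 6.18 dashed. At 219602_s_at the soft arrays read 6.16 to 6.51 and the stiff arrays 4.99 to 5.76; in the other 5 panels the groups overlap below the dashed line.

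None of the other 5 PIEZO2 probe sets was above background, and none passed the threshold. The platform table pairs them with cDNA or EST records rather than a RefSeq mRNA. The one of highest mean, 1562488_at, read 5.85 to 5.97 on stiff and 5.82 to 6.05 on soft and differed by 0.02 (SE 0.0691, adjusted p = 0.929). Probe sets 222908_at, 1565774_at, 1563584_at and 1564015_at differed by 0.17, 0.12, 0.09 and 0.02, with adjusted p from 0.37 to 0.921. The gap between them and 219602_s_at was picked out after the values were seen. It is given as a description, and exact tests of it are not used as support. The mean of all 6 gave 0.22 (SE 0.0575, adjusted p = 0.0322 in limma's fit on gene means), and the probe set of highest mean level gave 0.02. That mean includes 219602_s_at itself and so is not separate support for its change. The suffix of 219602_s_at marks probes that match more than 1 transcript. Which transcripts it reads, of PIEZO2 or of another gene, was not tested.

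**Figure D3:**
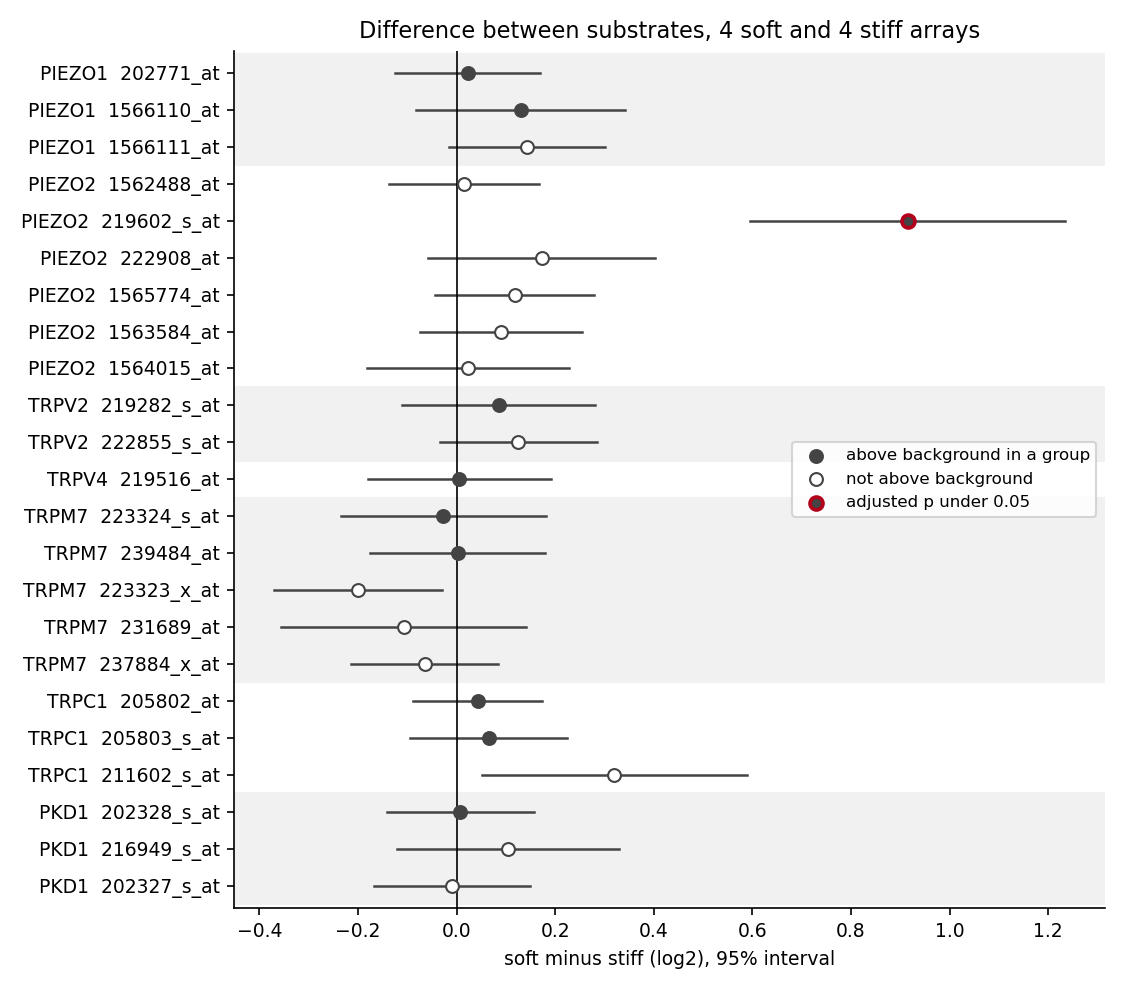
Soft minus stiff difference on the log2 scale (x axis) for each channel probe set (y axis), points with 95% intervals from limma's fit of 4 soft and 4 stiff arrays, filled where a group mean is above background and ringed in red where adjusted p is under 0.05. PIEZO2 219602_s_at stands at 0.92, and all others lie between -0.20 and 0.32.

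Among the TRP channels, TRPV2 and TRPV4 are vanilloid-type channels, and TRPV4 is opened by cell swelling. TRPV2 219282_s_at read 6.80, 6.58, 6.53 and 6.57 on stiff A to D and 6.69, 6.72, 6.52 and 6.89 on soft A to D, overlapping throughout, with a difference of 0.09 (SE 0.089, adjusted p = 0.637). Its second probe set, 222855_s_at, was not above background and differed by 0.13 (adjusted p = 0.346). TRPV4 has 1 probe set, 219516_at, which read 6.32, 6.26, 6.14 and 6.16 on stiff and 6.16, 6.16, 6.12 and 6.46 on soft. Those levels straddle the background level, soft D being the highest array, and the difference was 0.01 (adjusted p = 0.981).

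TRPM7 joins a channel for magnesium, calcium and zinc to a kinase domain in 1 protein. TRPM7 223324_s_at read 7.99, 8.02, 8.01 and 8.00 on stiff and 7.77, 8.13, 8.19 and 7.82 on soft. The soft arrays spread to both sides of the stiff ones (SD 0.213 against 0.0129), and the difference was -0.03 (SE 0.0947, adjusted p = 0.904). Among its other probe sets, 239484_at differed by 0.00 (SE 0.0809, adjusted p = 0.989). The x-suffixed 223323_x_at, not above background, had the lowest difference of all channel probe sets, -0.20 (unadjusted p = 0.0256, adjusted p = 0.145 in limma's fit), with stiff arrays at 5.78 to 5.98 and soft arrays at 5.54 to 5.78. TRPM7 231689_at and 237884_x_at, neither above background, differed by -0.11 and -0.07 (adjusted p = 0.639 and 0.637).

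TRPC1 is a canonical TRP channel linked to stretch and to calcium entry after store depletion. TRPC1 205802_at read 8.05, 8.03, 8.11 and 8.08 on stiff and 8.07, 8.12, 8.20 and 8.05 on soft, a difference of 0.04 (SE 0.0599, adjusted p = 0.74). TRPC1 205803_s_at, paired with the same RefSeq mRNA, differed by 0.07 (SE 0.0723, adjusted p = 0.661), so both probe sets above background read alike within their errors. The third, 211602_s_at, was not above background and read 5.30, 5.87, 5.66 and 5.62 on stiff and 5.69, 6.08, 6.08 and 5.88 on soft. Its difference of 0.32 (SE 0.122) was the next largest after PIEZO2, had an unadjusted p of 0.0239 and an adjusted p of 0.139 in limma's fit, and the groups overlapped.

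PKD1 202328_s_at read 6.79, 6.75, 6.89 and 6.74 on stiff and 6.79, 6.76, 6.72 and 6.93 on soft, a difference of 0.01 (SE 0.0677, adjusted p = 0.965). PKD1 216949_s_at and 202327_s_at were not above background and differed by 0.11 and -0.01 (adjusted p = 0.609 and 0.956). PKD1 has near-identical pseudogene copies on the same chromosome, so how far its probe sets read PKD1 itself is uncertain. A further probe set, 240377_at, names PKD1 together with 7 other genes and was left out; it differed by -0.03 (adjusted p = 0.927).

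The precision of these arrays sets a bound on the differences that did not pass. For the 9 probe sets above background that did not pass the threshold, differences ran from -0.03 to 0.13, and their 95% intervals together spanned -0.24 to 0.34. The lower end came from TRPM7 223324_s_at, with a soft mean of 7.98. The upper end came from PIEZO1 1566110_at, with means of 6.25 on stiff and 6.38 on soft, near the background level of 6.18. TRPV4 219516_at and TRPM7 239484_at also lay near that level, so no fold changes are given for these intervals. The intervals do not show that the channels were equal on both substrates, and RMA is known to compress differences of dim probe sets. The gaps between probe sets of 1 gene were tested by an exact permutation test for the 3 pairs with both above background, 1 each in PIEZO1, TRPM7 and TRPC1, and none passed (exact p = 0.314, 0.8 and 0.743, adjusted p = 0.8 for each; none unadjusted either).

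**Figure D4:**
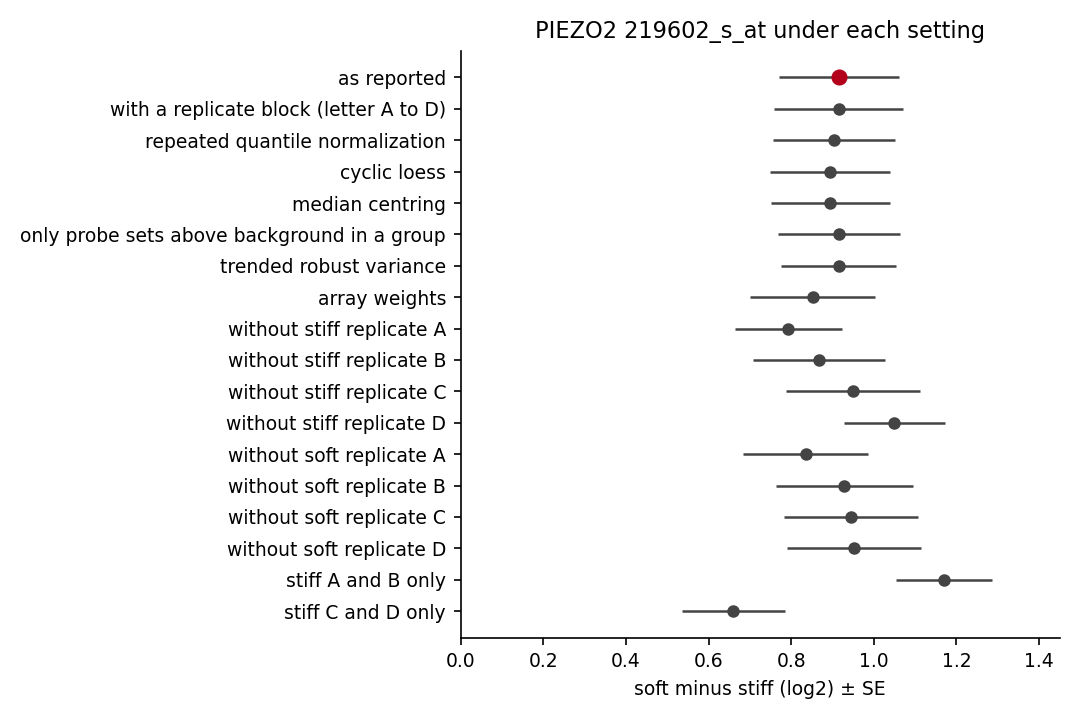
Soft minus stiff difference of PIEZO2 219602_s_at on the log2 scale (x axis, points with SE) as reported (red) and under 17 other settings (y axis). All points lie between 0.66 and 1.17, lowest against stiff C and D alone and highest against stiff A and B alone.

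As a description over the 8 arrays, the genes whose levels followed each channel most closely were found by Pearson correlation among 11585 genes above background. NEK8, NXNL1 and CD5 were nearest to PIEZO1 202771_at (r = 0.974, 0.973 and 0.965), CTDNEP1, FAM229B and NAPRT to TRPV4 (0.967, 0.948 and 0.943), and LRRC37A4P, LTBP3 and DCTN1 to TRPV2 (0.947, 0.942 and 0.939). OSTC, CCDC82 and KCTD9 were nearest to TRPM7 223324_s_at (0.954, 0.939 and 0.931), ULK4, APBB2 and PDPK1 to TRPC1 205802_at (0.920, 0.883 and 0.866), and ZNF337, POR and KLK14 to PKD1 202328_s_at (0.923, 0.912 and 0.888). These are the highest of many correlations over few arrays and share the array-to-array scatter of a single series. None of those 18 genes passed the threshold themselves. They were chosen for likeness to channel probe sets that did not pass, so this outcome was largely set by the choice. For PIEZO2 219602_s_at, chosen after its values were seen, the nearest among 11586 genes were IL31RA, CPT1A and ANXA4 (0.991, 0.990 and 0.990), which rose by 0.40, 0.26 and 0.71 on soft and thus share the group difference.

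Genes around the channels were taken from 5 lists, each gene read by its probe set of highest mean. Of 95 measured, 8 rose on soft and 5 fell, 13.7% in all. Of all genes 10.3% were called in either direction, 4.39% as higher and 5.93% as lower. The counts of each list below stand beside these same shares. Of 23 other TRP and polycystin channels, 18 were not above background. The lysosomal channel MCOLN2 was the only one that passed, and it fell by 0.46 on soft (SE 0.087, adjusted p = 0.00929), at both of its probe sets. The list median was 0.04, against 0.01 for all genes.

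Of 20 other stretch- or volume-gated channels, 1 rose and 2 fell, all 3 subunits of the volume-regulated anion channel, which opens when cells swell. LRRC8A, the obligatory subunit, rose by 0.29 (SE 0.0677, adjusted p = 0.0228), with stiff arrays at 12.24 to 12.29 and soft arrays at 12.43 to 12.70. LRRC8D fell by 0.37 (SE 0.0594, adjusted p = 0.00399) and LRRC8B fell by 0.30 (adjusted p = 0.0364). In each of these 3 genes the arrays of the groups did not overlap. Of all probe sets, 8.06% had every soft array above every stiff one and 8.50% the reverse. The 3 genes were named for their calls, so the lack of overlap is not separate support. LRRC8C and LRRC8E, subunits of the same channel, differed by -0.04 and -0.14 and did not pass at their probe sets of highest mean, though 1 of 5 LRRC8C probe sets was called lower. TMEM63A, another channel of this list, differed by 0.16 (adjusted p = 0.3 in limma's fit) at its probe set of highest mean. It was not counted as passing, though 2 of its 4 probe sets were called higher on soft. The list median was 0.02. None of 13 channel partners passed the threshold (list median 0.03), although 1 of the 4 probe sets of MDFIC, a PIEZO-binding protein, and 1 of 4 of RNF24 did.

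Of 19 store-operated entry and calcium transport genes, 4 rose and 1 fell (list median -0.06). The plasma membrane channel subunit ORAI3 rose by 0.50 (SE 0.0734, adjusted p = 0.00255), with stiff arrays at 8.24 to 8.53 and soft arrays at 8.81 to 8.94. Its relatives ORAI1 and ORAI2 differed by -0.12 and -0.11 and did not pass. The calcium pumps ATP2B4 and ATP2B1 rose by 0.42 and 0.30 (adjusted p = 0.0321 and 0.0342). The probe sets of ATP2B1 were at odds, since 215716_s_at and 212930_at, both above background, differed by -0.25 and -0.12 and did not pass (adjusted p = 0.143 and 0.497). Among the calcium release channels of the endoplasmic reticulum, ITPR3 rose by 0.35 (adjusted p = 0.0445) and ITPR2 fell by 0.52 (adjusted p = 0.034). The groups overlapped at ITPR2, where soft B read 7.17 and stiff A 7.12. Of 20 calcium-dependent signalling genes, 3 rose and 1 fell (list median 0.04): the calcineurin regulator RCAN3 by 0.35 (adjusted p = 0.00487), the calpain subunits CAPNS1 by 0.39 (adjusted p = 0.0109) and CAPN1 by 0.32 (adjusted p = 0.00802), while RCAN1, induced by calcineurin signalling, fell by 0.36 (adjusted p = 0.0447). CAMK2D was not counted, with a difference of 0.26 (adjusted p = 0.0511 in limma's fit) at its probe set of highest mean, though 3 of its 5 probe sets were called higher. NFAT5 had 1 of 3 probe sets called in each direction. ATP2B1, ITPR3 and CAPN1 lie outside the naming rule and were added after their values were seen. The same holds for the values of TMEM63A, CAMK2D, NFAT5 and the uncalled LRRC8 and ORAI genes. For ITPR2, RCAN1, ATP2B1 and CAPN1 a single probe set passed, of 4, 3, 3 and 2.

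Several of these calls lay near the threshold and were lost with fewer arrays. With 1 array left out at a time, 6 to 10 list genes were called in place of 13, fewest without soft D. MCOLN2, LRRC8D, ORAI3, CAPNS1, RCAN3 and CAPN1 kept their calls in each of these 8 fits; MCOLN2 and CAPN1 lost them against stiff C and D alone, and CAPNS1 against stiff A and B alone. LRRC8A lost its call without stiff B, C or D or soft D (0.28 to 0.29, adjusted p = 0.052 to 0.0652), and LRRC8B without stiff B, C or D or soft A, B or D (-0.32 to -0.26, adjusted p = 0.0629 to 0.1). ATP2B4 lost it without stiff A or B or any soft array (0.33 to 0.45, adjusted p = 0.0505 to 0.0816), ATP2B1 without stiff A, B or D or any soft array (0.25 to 0.31, adjusted p = 0.0577 to 0.0993), and ITPR3 without stiff A, B or C or soft A, B or D (0.28 to 0.38, adjusted p = 0.0607 to 0.124). ITPR2 lost it without stiff B, C or D or soft A, C or D (-0.55 to -0.42, adjusted p = 0.0617 to 0.093), and RCAN1 without stiff C or D or any soft array (-0.37 to -0.29, adjusted p = 0.0617 to 0.12). Scaling ended calls as well, that of RCAN1 under cyclic loess and that of ITPR3 under median centring.

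**Figure D5:**
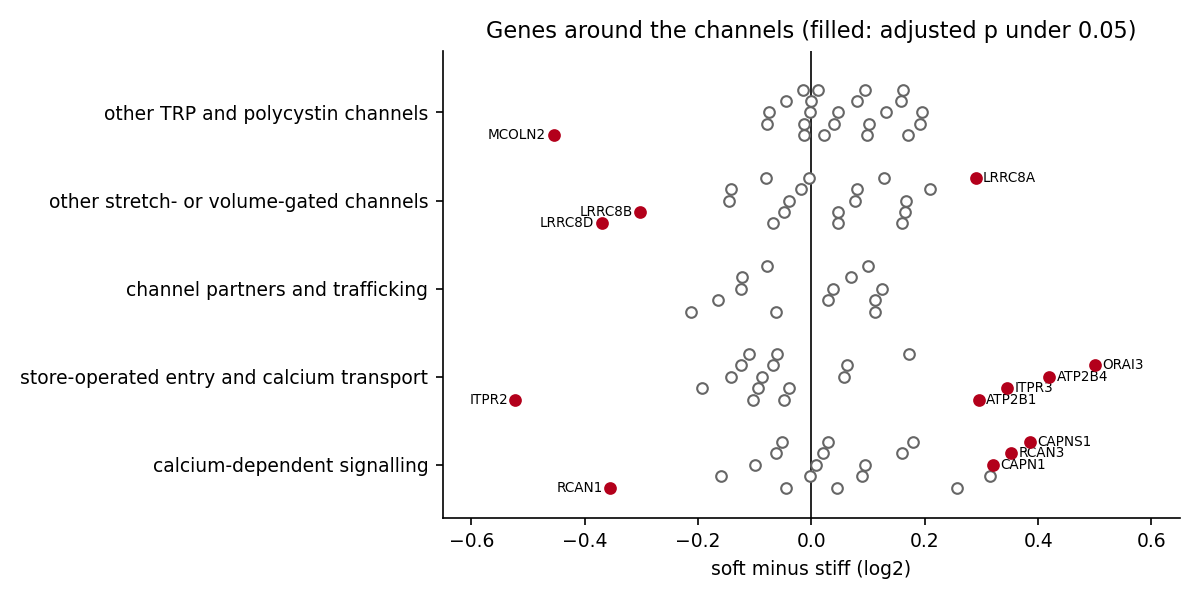
Soft minus stiff difference on the log2 scale (x axis) of each measured gene of the 5 lists around the channels (y axis), 1 point per gene from 4 soft and 4 stiff arrays, spread vertically for legibility and filled where adjusted p is under 0.05. Filled points lie from -0.52 (ITPR2) to 0.50 (ORAI3), 8 above 0 and 5 below.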

How the data were processed

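Total RNA of 8 MDA-MB-231 cultures was hybridised to Affymetrix arrays. The authors deposited 1 table of log2 levels per probe set and array, made with RMA per the submitters' processing notes; the log2 scale was read from the values, and the sources used here do not name the RMA software. RMA removes shifts common to all genes. Of 54675 probe sets, 62 controls were left out. The platform annotation gave 41091 of the rest a single symbol, 1801 several and 11721 none; no symbol needed updating against RefSeq. Soft and stiff were compared with limma 3.58.1 in R 4.3.3 (lmFit, eBayes without trend), two-sided, with Benjamini-Hochberg adjustment over 54613 probe sets. The fit was tested on simulated data. Of 17 genes listed as silent, 12 were measured and set the background. The members and lists were chosen with earlier results of these data known. The naming rule took all members and probe sets, up to 2 called genes per direction and list, and 3 genes of nearest pattern per channel. Separate cultures are not described beyond the word biological, so the p-values refer to the spread among these arrays, which may be technical, and the number of arrays limits the precision. Letters A to D did not pair the samples: deviations of same-lettered arrays correlated at -0.118 to 0.122. Alternatives were a replicate block, other scalings, filters on dim probe sets, variance models, array weights, thresholds, probe set choices and leaving out arrays.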

Additional observations from a re-analysis of the deposited data

Results flagged for a closer look

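In 4 of 72 groups of 4 arrays, 1 array stood apart from the other 3, about the number (3.6) that chance gives at this level. They were soft D at TRPV4 219516_at, at 6.46 with the others at 6.12 to 6.16, soft A at TRPC1 205803_s_at, at 8.0 with the others at 8.13 to 8.15, and stiff D at PIEZO2 222908_at, at 4.67 with the others at 4.82 to 4.84. The remaining one was stiff A at LRRC8D 218684_at, at 10.54 with the others at 10.60 to 10.61.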

How the results depend on the processing

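PIEZO2 219602_s_at kept its direction and its call in the 17 alternatives that gave it a value, with differences of 0.66 to 1.17 and adjusted p of 0.00072 to 0.0253 in limma's fits. Among the 17 is the filter on probe sets above background, which it passed only through its soft mean, so that filter gives no separate support. The filter at the median level of all probe sets removed it, which left 0 channel probe sets called. With the suffixes _s_at, _x_at and _a_at left out the count was also 0. With a replicate block 2 channel probe sets were called, the second being TRPC1 211602_s_at (0.32, adjusted p = 0.032); 1 of 4 soft arrays correlated best with its own letter. In 373 refits of the other 22 probe sets this was the only call, and signs changed in 43, at 10 probe sets, none of them called. The background at the median of the silent genes put 19 channel probe sets above it instead of 10, with 0 probe set pairs past the threshold of 19 tested (1 at an unadjusted exact p under 0.05). Pairs of PIEZO2 probe sets were among the 19. The smallest exact p possible is 0.0286, so a single pair could not have passed after adjustment over 19. Of the genes around the channels, 20 instead of 13 were called above background or above the median level, where fewer probe sets are adjusted over, 7 against stiff A and B alone or stiff C and D alone, 5 at adjusted p under 0.01, and 6 to 10 without 1 array; the replicate block gave 10. None of the 13 reversed in 234 refits, and 61 refits lost a call. Dim signal limits 13 of the 23 channel probe sets.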
